A study of Canis lupus familiaris with 31 samples.

Results

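Primary HTG, a raised fasting triglyceride concentration in blood without another disease behind it, is common in the Miniature Schnauzer breed, and body fat is a second source of variation in blood lipids. To describe HTG apart from excess weight, the comparison was limited to the dogs with a body condition score of 5 or less on a scale from 1 (emaciated) to 9 (obese), which are called lean here. They were 15 of the 31 dogs of the series, with 5 HTG cases (cases 06, 10, 11, 12 and 13) and 10 controls (controls 01, 02, 05, 10, 12, 13, 14, 15, 16 and 18). The other 16 dogs, 8 cases and 8 controls with scores of 6 or more, are called overweight here and served for comparison. All were client-owned purebred Miniature Schnauzers that gave fasting jugular blood into tubes that stabilize RNA. None received a treatment as part of the design.

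The lean cases were 3 males and 2 females aged 9 to 14 years, with a score of 5 in 4 dogs and 4 in 1 dog. The lean controls were 5 males and 5 females aged 8 to 11 years, with a score of 5 in 5 dogs, 4 in 4 dogs and 3 in 1 dog. Males were castrated and females spayed, apart from case 12, an intact female. Overweight cases were aged 8 to 12 years and overweight controls spanned a wider range, with more males than females in both groups. Cases were screened for diabetes mellitus, hypothyroidism, hypercortisolism and kidney disease, and dogs on drugs that alter lipids, glucocorticoids among them, were not enrolled. All controls screened negative for diabetes mellitus, but not all of them for both hypothyroidism and hypercortisolism. Of the 5 lean cases, 4 were the 4 cases with the lowest triglycerides among all 13, and case 06 ranked as number 6 from the top. Leanness therefore cannot be told apart from milder HTG in any comparison with the overweight dogs.

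Whole blood is a mixture. Most of its cells are erythrocytes and platelets without a nucleus, which still carry RNA, while neutrophils, monocytes and lymphocytes supply most other transcripts. Triglyceride-rich particles are cleared by lipoprotein lipase on the capillary wall with proteins made mainly in the liver. In such bulk RNA, fewer cells of a type and less RNA per cell cannot be told apart.

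The values were counts of read pairs on genes, and the total per lean dog lay between 16413966 and 34312116. No measure of the libraries set the lean cases apart: the mean of log10 total counts was higher in cases by 0.0764 (exact two-sided permutation test over 3003 arrangements, P = 0.11), and the first principal component, with 30.8% of the variance, had overlapping ranges (exact permutation test, P = 0.212). Age was 1.5 years higher in cases (exact permutation test, P = 0.114), and the Benjamini-Hochberg adjusted P for the 6 measures tested lay between 0.342 and 0.915. Counts of small RNA genes parted the 31 dogs into 10 with high and 21 with low levels, and 2 lean cases (06 and 13) and 4 lean controls were on the high side, against 3 and 6 on the low side. The high side held 5 cases and 5 controls of all 31 dogs, the same make-up as the libraries that were made earlier for a pilot, but whether they are the same dogs cannot be told from the labels. Values within each side are given below for some of the results. In marker lists for 9 blood and vessel cell types, the summed levels of cases and controls overlapped for each type, from 5719 to 9189 normalized CPM (read pairs of a gene as a share of the library) in cases and 3220 to 8300 CPM in controls for neutrophil markers, and from 1336 to 5634 CPM in cases and 1628 to 4297 CPM in controls for platelet markers. Such sums weigh the most abundant genes. Scores that average the log2 levels of the markers overlapped as well. All 5 cases were above the control median score for erythroid, neutrophil and endothelial markers, and 2 to 4 of them for each other type.

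Among lean dogs, no gene passed the test. Of 14293 genes tested with the quasi-likelihood test of edgeR, 0 (0%) had an adjusted P of 0.05 or less, and the smallest adjusted P was 0.947, which is therefore the floor for every gene named from this comparison. Without adjustment 705 genes (4.93%) had a P under 0.05, 335 of them (2.34%) higher and 370 (2.59%) lower in cases. The median log2 fold change of all genes was −0.0064, with 48.5% above 0. On counts simulated for these dogs and 14293 genes, 197 changed genes were tested together. The same test recovered 60.4% of them when the change was 1 on the log2 scale and 91.4% when it was 2. It also called 8 unchanged genes at each of these sizes, and 0 genes when none was changed. A part of the changes of such sizes would therefore go unseen. The shares hold for many genes changed together and do not carry over to a gene changed alone. DESeq2 called 1 gene, MMP1 (log2 fold change 4.04, adjusted P = 0.0235). The values below are described as higher or lower in these dogs, with P given without adjustment unless stated.

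Matrix metalloproteinase 1 (MMP1), a secreted collagenase, had the smallest P. It stood at 2.09, 3.61, 49.3, 1.49 and 58.0 CPM in cases 06, 10, 11, 12 and 13, and at 0.239 to 4.28 CPM in the controls (median 0.923). Cases 11 and 13 were far above every control, while the other 3 cases lay within their range. Its log2 fold change was 3.99 ± 0.76 (SE, edgeR, P = 6.63e-05), and 3.51 without case 11 and 3.30 without case 13. It was 5.66 in the dogs with high and 3.19 in those with low small RNA levels.

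GATA2, HPGD and C3AR1 were also among the 10 genes with the smallest P that were higher in cases. GATA2, a transcription factor of blood stem cells, basophils and mast cells, stood at 5.98, 3.32, 7.71, 1.94 and 12.1 CPM in the cases, against 1.24 to 5.62 CPM (median 1.70) in the controls. All 5 cases were above the control median and 3 were above every control (log2 fold change 1.50 ± 0.39, P = 0.00144). In the dogs with high small RNA levels it was 2.10, and in those with low levels 0.94. HPGD, which breaks down prostaglandins, followed the same dogs, at 7.16, 2.88, 11.2, 1.67 and 14.0 CPM against 1.17 to 4.48 CPM in the controls (1.48 ± 0.40, P = 0.00187). Over the alternatives tried, HPGD lay between 0.83 and 2.03. GATA2 is one of 5 eosinophil and basophil markers tested, of which 4 were higher and 1 lower in cases. The eotaxin receptor CCR3 was at 0.53 ± 0.21 (P = 0.0219), MS4A2, a chain of the IgE receptor, at 0.14 ± 0.30, the protease CPA3 at 0.33 ± 0.45 and the interleukin 5 receptor chain IL5RA at −0.28 ± 0.24, all 4 with overlapping groups. C3AR1, the receptor for the complement fragment C3a, stood at 9.53, 8.50, 5.70, 5.26 and 4.30 CPM against 2.34 to 5.73 CPM (0.88 ± 0.21, P = 0.000769).

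SREBF1 encodes the sterol regulatory element binding protein that drives fatty acid and triglyceride synthesis in the liver. It was the one gene of the lipid lists whose groups did not overlap, at 21.8, 19.8, 19.0, 19.5 and 23.4 CPM in the cases and 15.7 to 18.8 CPM (median 16.3) in the controls. The difference was small, 0.30 ± 0.08 on the log2 scale (P = 0.00152), and lay between 0.22 and 0.42 in all 32 alternatives tried. Of the 14293 genes, 6 (0.042%) were higher in every case than in any control, and 11 (0.077%) lower. The dogs can be parted into groups of these sizes in 3003 ways, so a few such genes are expected without any effect. MATN4, KRT17 and the histone gene HIST1H2AB completed the 10 with the smallest P, together with SLPI and MPO, which are described with the granule genes. MATN4 and KRT17 rested on low counts, with medians of 1.54 and 1.08 CPM in cases and 0.527 and 0.177 CPM in controls. HIST1H2AB belongs to a family of near-identical genes, among which reads may be shared.

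TUBE1, which encodes the epsilon tubulin of centrioles, had the second smallest P of all genes and was lower in every case than in any control. It stood at 3.34, 4.70, 3.54, 3.43 and 4.84 CPM in the cases and 5.11 to 8.77 CPM (median 6.67) in the controls (log2 fold change −0.80 ± 0.17, P = 0.000261). TENT4B, a poly(A) polymerase, was also lower without overlap, at 48.0 to 56.2 CPM against 57.7 to 68.1 CPM (−0.27 ± 0.06, P = 0.000689). So were FST, the activin-binding protein follistatin, at 0.266 to 0.540 CPM against 0.676 to 2.27 CPM (−1.59 ± 0.39), and HECA (−0.25 ± 0.07). FST counts were few, between 4 and 17 per case.

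PDK4, a kinase that turns cells from glucose to fatty acid oxidation and is induced by fasting, fatty acids and glucocorticoids, stood at 0.348, 0.438, 0.196, 0 and 0.266 CPM in the cases and 0.156 to 4.00 CPM (median 1.36) in the controls. Each case lay below the control median, and 1 control overlapped them (−2.89 ± 0.77, P = 0.0017). Between 0 and 12 read pairs per case stood behind these values. Among overweight dogs the same gene differed by −0.18 ± 0.73, and the difference between the effects was −2.70 ± 1.13 (adjusted P = 1). SLC15A3, a lysosomal peptide transporter, was lower by −2.93 ± 0.77, with 0 to 14 read pairs per case. The remaining genes of this group, TMEM156, XKRX, NUPL2 and ARAP2, differed by −0.83 to −0.31 on the log2 scale.

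**Figure D1:**
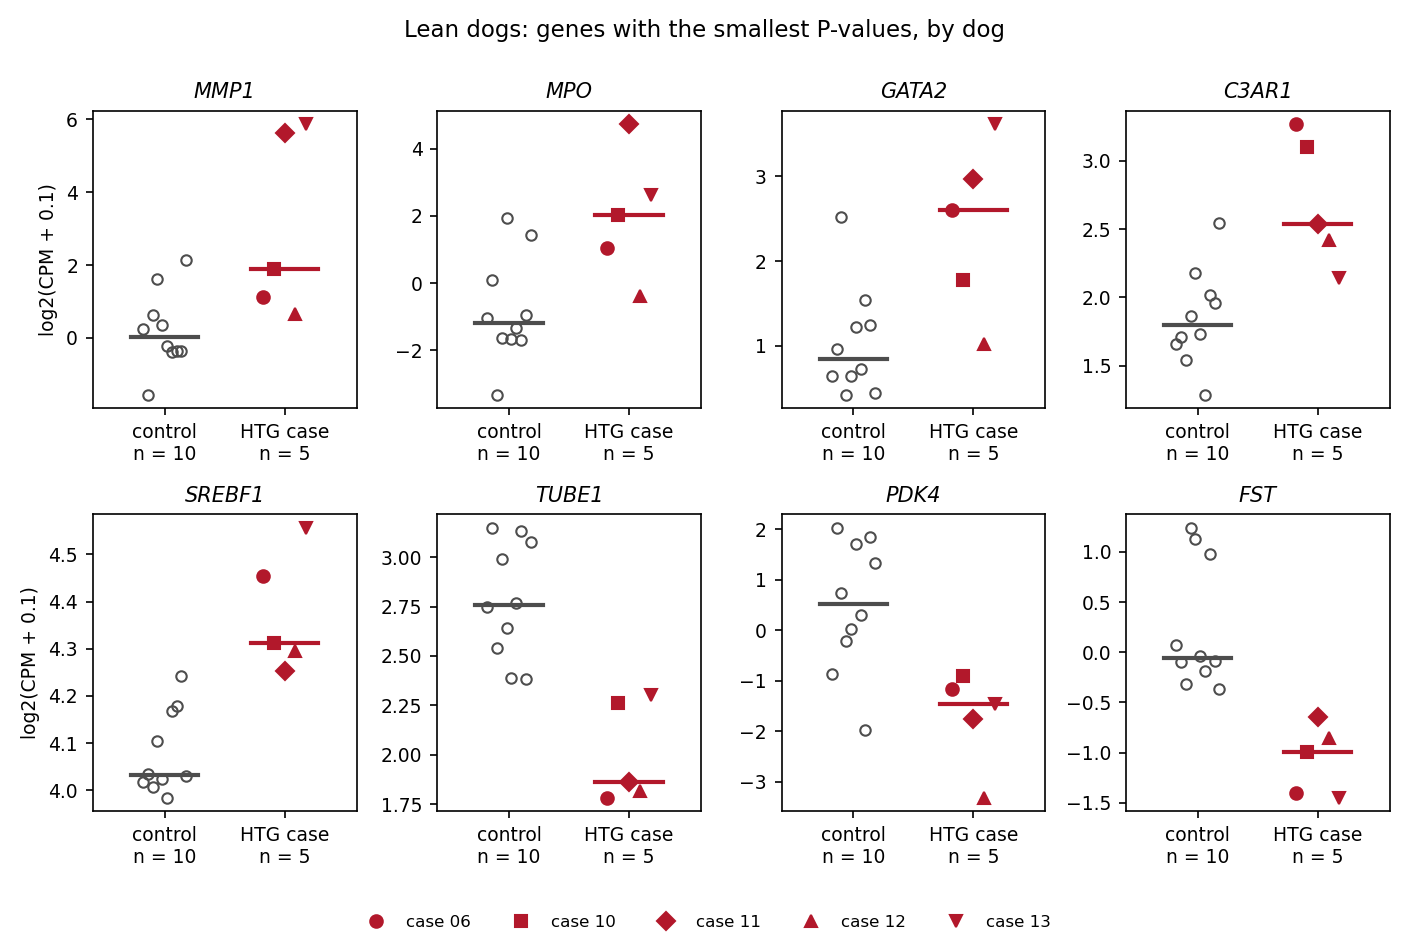
Levels of 8 genes with small P-values in each lean dog, on the scale log2(CPM + 0.1). Open circles are the 10 controls, filled marks the 5 HTG cases (1 shape per dog) and lines the group medians. MMP1 is high in cases 11 and 13 alone, while SREBF1, TUBE1 and FST show no overlap between the groups.

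The study put 8 genes forward from all 31 dogs that were measured here too, so that their direction in the lean dogs, which are part of those 31, is not independent evidence. All 8 were higher in the lean cases, 5 of them with a P under 0.05, against 2.34% of all genes. ARHGAP29, which switches off the GTPase RhoA, stood at 4.94, 3.39, 0.295, 5.47 and 2.39 CPM in the lean cases and 0.685 to 3.65 CPM (median 1.24) in the lean controls. Case 11 had less than any control, and 2 cases had more than any control (log2 fold change 1.05 ± 0.49, P = 0.0449). Over the alternatives tried, the lean value of ARHGAP29 lay between 0.63 and 1.83. In overweight dogs it stood at 1.65 to 18.2 CPM (median 5.76) in cases and 0.211 to 1.42 CPM (median 1.11) in controls, without overlap, as was seen for 0.0363% of all genes there (2.87 ± 0.46, adjusted P = 0.107). The lean effect was smaller by −1.82 ± 0.70 (P = 0.0141, adjusted P = 1).

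MMRN1, or multimerin 1, a platelet protein that binds factor V, stood at 50.1, 49.7, 24.2, 21.0 and 34.2 CPM in the lean cases against 9.46 to 41.2 CPM (median 20.6) in the lean controls. All 5 cases were above the control median, but only cases 06 and 10 were above every control (0.66 ± 0.30, P = 0.0417). The effect was 1.72 ± 0.31 in overweight dogs, and the lean effect differed from it by −1.06 ± 0.46 (P = 0.0272, adjusted P = 1). FZD7, a Wnt receptor, was at 0.31 ± 0.31 in lean and 1.15 ± 0.25 in overweight dogs, with a difference of −0.84 ± 0.41 (P = 0.048, adjusted P = 1).

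Other genes of the 8 were closer between the strata. ST6GALNAC4, a sialyltransferase, was at 0.67 ± 0.22 in lean and 0.70 ± 0.21 in overweight dogs, a difference of −0.04 ± 0.31 that changed sign in 7 of 20 alternatives. ARHGAP21, another RhoGTPase activating protein, was at 0.41 ± 0.14 and 0.64 ± 0.13, and RTN4, a shaper of the endoplasmic reticulum, at 0.10 ± 0.07 and 0.24 ± 0.07. STON2, an endocytic adaptor, was at 0.40 ± 0.20 in lean and 0.93 ± 0.21 in overweight dogs (difference −0.54 ± 0.31, P = 0.0873). Without case 06 the lean values of STON2, FZD7 and ARHGAP21 were 0.17, 0.14 and 0.27.

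**Figure D2:**
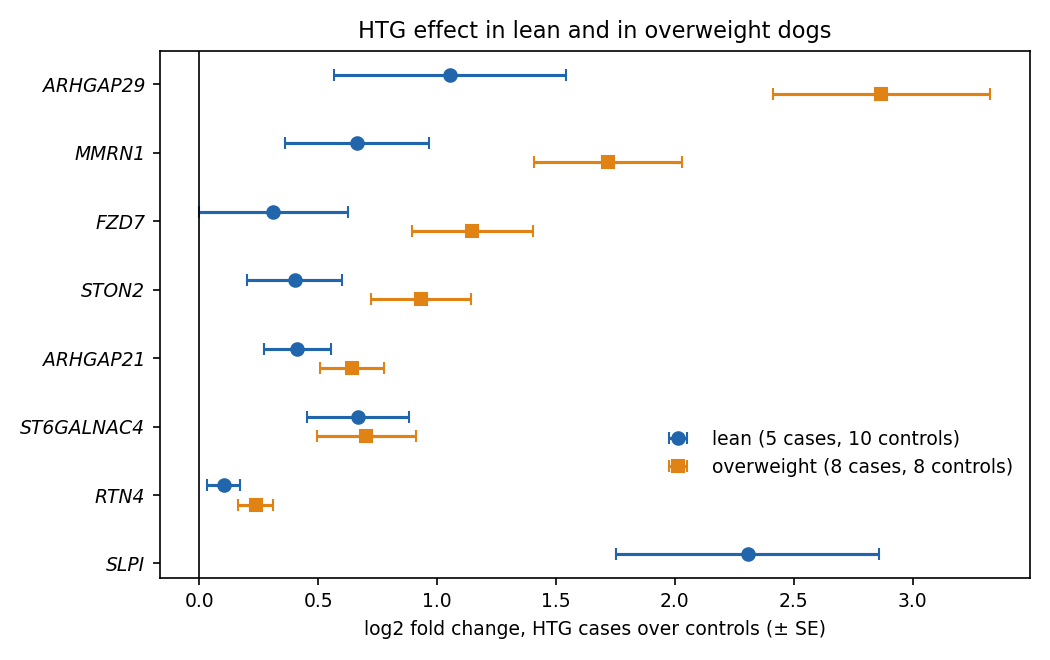
Log2 fold change of HTG cases over controls (± SE, edgeR) for 8 genes the study put forward, in lean dogs (circles) and overweight dogs (squares). ARHGAP29, MMRN1 and FZD7 lie further right in overweight dogs, ST6GALNAC4 lies at nearly the same place, and SLPI was below the filter in overweight dogs.

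The longer list of genes that the study called higher in cases was likewise chosen on dogs that include these. Of its 86 members, 74 were found by symbol and tested in lean dogs. All 74 were higher in the lean cases, 25 of them with a P under 0.05 against 2.34% of all genes, with a median log2 fold change of 0.38. In overweight dogs the median over 73 of them was 0.91, and 68 had a P under 0.05. Of all 13766 genes tested there, 4.01% were higher and 3.52% lower with such a P, 7.53% in all. The lean value was the smaller one in 69 of these 73 genes, and the test of the difference gave a P under 0.05 for 15 of 74 genes, against 4.04% of the 15030 genes tested for it, with 0 past adjustment. In the study's clustering on its whole list, the lean case 12 grouped with controls and the lean control 18 with cases. An overweight case grouped with controls too. Of 24 genes called lower in cases, 14 were found by symbol. Their medians were −0.25 in lean and −0.24 in overweight dogs, with 13 and 10 at a P under 0.05, against 2.59% and 3.52% of all genes.

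Platelets carry RNA passed on by megakaryocytes, and platelet genes made up 3 lists. Of 18 platelet receptor genes tested in lean dogs, 17 were higher in cases with a median log2 fold change of 0.41, 4 of them with a P under 0.05, where 48.5% of all genes were above 0 and 2.34% higher with such a P. Granule cargo genes were higher in 15 of 16 (median 0.31, 2 with a P under 0.05), and genes of the platelet skeleton and enzymes in 16 of 17 (median 0.34, 3 with a P under 0.05). None passed adjustment. The medians in overweight dogs, where 44.9% of all genes were above 0, were 0.69, 0.36 and 0.68, and 15 of the 17 skeleton and enzyme genes had a P under 0.05 there.

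ITGA2B, the alpha chain of the fibrinogen receptor, stood at 1335, 1083, 598, 432 and 762 CPM in the lean cases and 275 to 920 CPM (median 577) in the controls. Its partner ITGB3 stood at 1531, 1306, 640, 546 and 877 CPM against 348 to 1017 CPM (median 699). Cases 06 and 10 were above every control for both chains, and cases 11 and 12 were near or below the control median. GNAZ, a G protein of platelets, was at 0.77 ± 0.26 (P = 0.0089), the tetraspanin CD9 at 0.57 ± 0.21 (P = 0.0161) and the granule protein thrombospondin 1 (THBS1) at 0.66 ± 0.25 (P = 0.0168). PPBP, an abundant platelet chemokine, was at 0.01 ± 0.33, and TBXA2R, the thromboxane receptor, at −0.42. The median of the receptor list was 0.23 without case 06 and 0.56 without case 12, with 0 and 11 members under a P of 0.05. Without case 06 the granule cargo genes were higher in 10 of 16 (median 0.16, 0 with a P under 0.05) and the skeleton and enzyme genes were at a median of 0.175. On the low side of the small RNA split, too, 10 of the 16 granule cargo genes were higher. Adjusted for the platelet marker score, MMRN1 was at 0.30 and ARHGAP29 at 0.94.

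**Figure D3:**
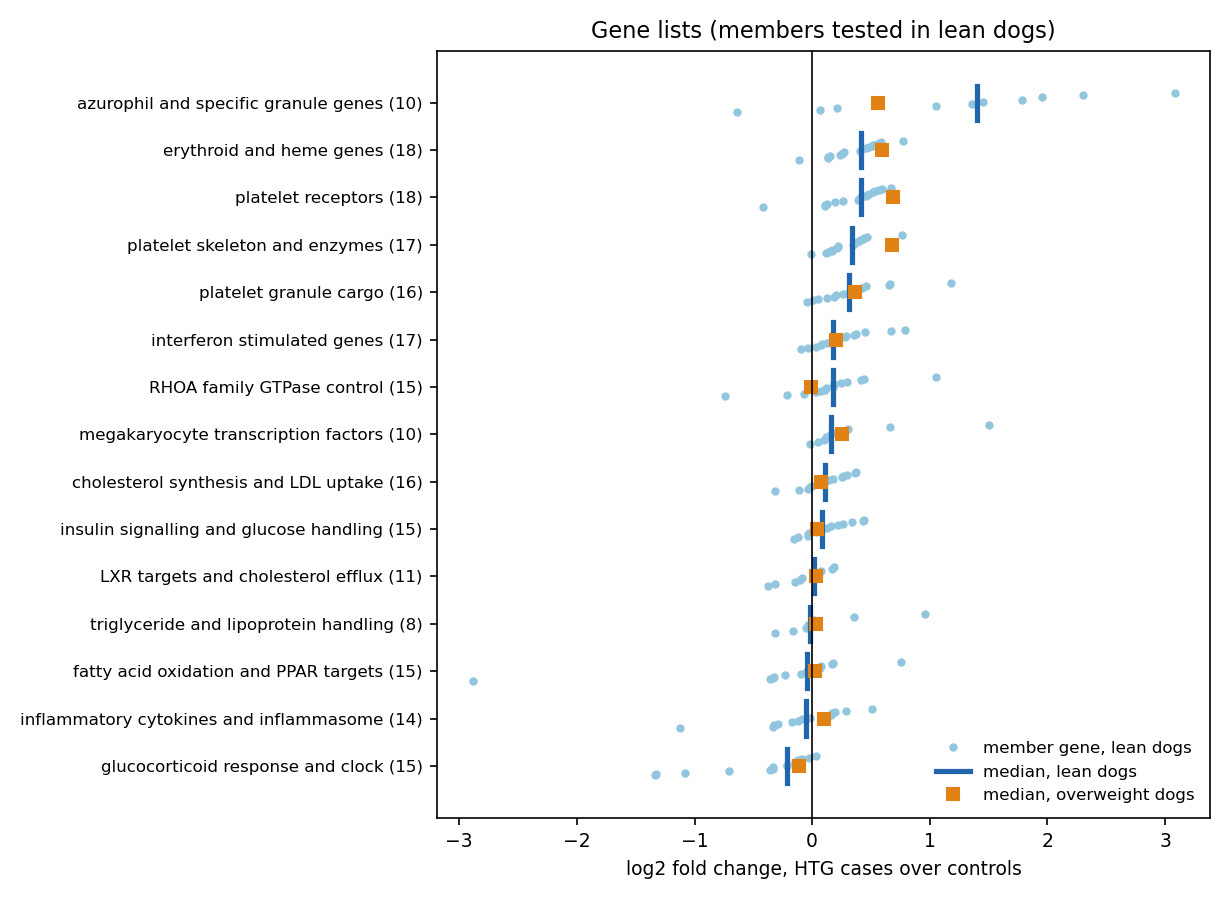
Log2 fold changes of HTG cases over controls for the members of 15 gene lists tested in lean dogs (dots, number in brackets), with the list's median in lean dogs (bar) and in overweight dogs (square). Granule genes lie furthest to the right with a lean median of 1.40 and the glucocorticoid and clock genes furthest to the left with −0.22.

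Of 15 genes around RHOA and its related GTPases, which set the actin skeleton of platelets and leukocytes, 12 were higher in lean cases (median 0.18). RHOA itself was at 0.11 ± 0.09, with 281 to 347 CPM in cases and 236 to 321 CPM in controls. RHOB, an early response member of the family, was lower instead, at 13.4, 15.0, 8.54, 11.5 and 14.3 CPM in the cases against 12.4 to 40.3 CPM in the controls (−0.74 ± 0.24, P = 0.00709). Among 10 transcription factors of megakaryocytes 9 were higher (median 0.16), and GATA2 was the one with a P under 0.05. Without case 06 it was 7 of 10, with a median of 0.10.

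Neutrophil precursors in the marrow make the proteins of azurophil and specific granules, and the messages for them are scarce in mature neutrophils. Of 13 such genes in the table, 3 were below the filter on low counts, and 9 of the 10 tested were higher in lean cases (48.5% of all genes), 4 of them with a P under 0.05 (2.34% of all genes). Their median log2 fold change was 1.40, against 0.56 in overweight dogs. It was the largest among the 15 lists, but not without case 11 or with age as a covariate. Myeloperoxidase (MPO) stood at 1.95, 3.94, 26.2, 0.664 and 6.01 CPM in the cases, and at 0 to 3.70 CPM (median 0.341) in the controls. All 5 cases were above the control median and 3 above every control (3.08 ± 0.84, P = 0.00193).

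Case 11 had the highest level of most granule genes. The antimicrobial peptide gene CAMP stood at 113, 32.2, 358, 10.2 and 105 CPM in the cases and 1.80 to 237 CPM (median 7.17) in the controls (1.95 ± 1.00, P = 0.0666). Control 12 was the dog at 237 CPM, and it also had 330 CPM of the collagenase MMP8, 182 CPM of PGLYRP1 and 3217 CPM of lactoferrin (LTF), above all other controls in each. SLPI, an inhibitor of granule proteases and one of the 8 genes above, stood at 1.39, 0.401, 4.03, 0.743 and 2.44 CPM against 0 to 0.779 CPM (2.31 ± 0.55, P = 0.000649). CTSG, or cathepsin G, was at 1.45 ± 0.40 (P = 0.00227) and MMP8 at 1.36 ± 0.62 (P = 0.0421).

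Not every gene of the list moved with these. BPI, at 170 to 314 CPM in cases and 136 to 301 CPM in controls, was at 0.07 ± 0.18, LCN2 at 0.21 ± 0.62 and CHI3L1 at −0.64 ± 0.70. The 8 neutrophil markers were at a median of 0.25 (7 higher), which was 0.15 without case 11, and 5 were higher without case 06. Among them the gelatinase MMP9 was at 1.68 ± 0.69 (P = 0.0253), with 1266 CPM in case 11 and 673 CPM in control 12 as the highest of their groups. The median of the granule list was 0.51 without case 11, where the erythroid and heme genes (0.54) and the platelet receptors (0.52) stood above it. With age as a covariate it was 0.47, against 0.51 for the platelet receptors, and without control 12 it was 1.93. Case 11, aged 14 years, was the oldest of the lean dogs. MPO was at 1.78 and MMP8 at 0.59 without that dog. On the high side of the small RNA split alone, with 2 cases and 4 controls, 5 genes passed adjustment: CAMP (4.41), CD177 (3.64), PGLYRP1 (2.87), C3 (2.84) and CP (2.71), with adjusted P from 0.0173 to 0.0315. These 5 were chosen for their values, and CAMP and PGLYRP1 were at 1.95 ± 1.00 and 1.78 ± 0.91 in all lean dogs.

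**Figure D4:**
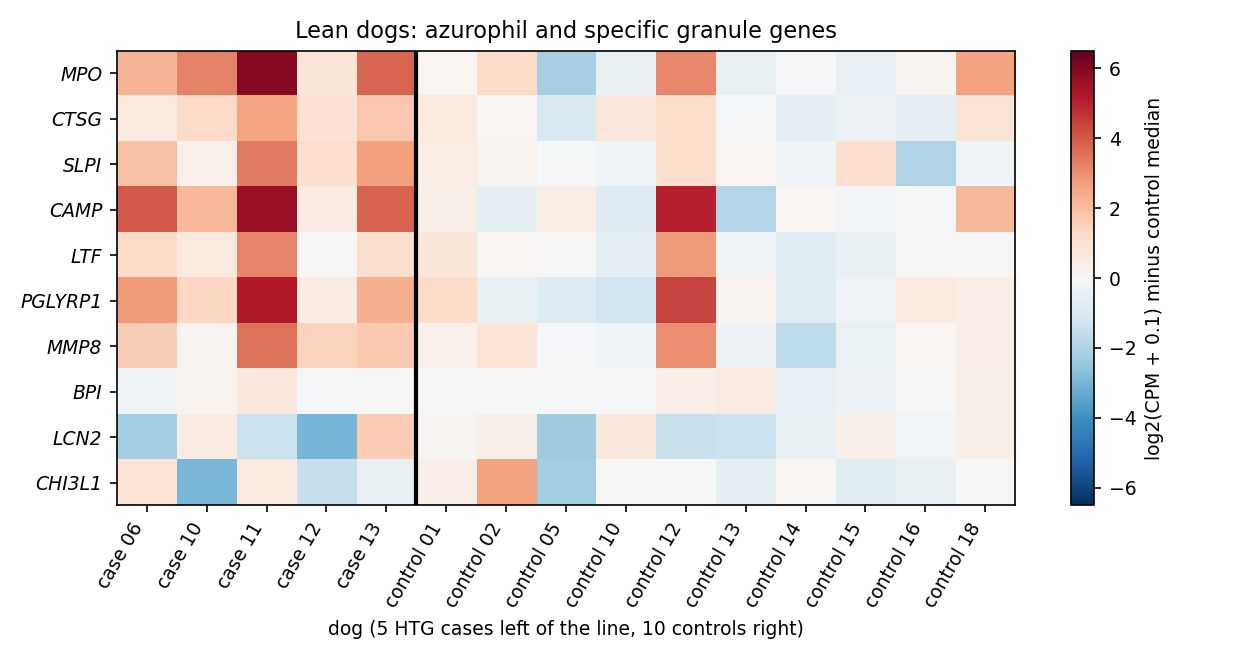
Levels of the 10 tested azurophil and specific granule genes (rows) in the 15 lean dogs (columns), as log2(CPM + 0.1) minus the median of the 10 controls. Case 11 and control 12 are the darkest columns, and every case is above the control median for MPO, SLPI, CAMP and PGLYRP1.

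Glucocorticoids switch on a well-known set of genes in leukocytes, and PER1 links that response to the circadian clock. Of 15 such genes, 14 were lower in lean cases, with a median of −0.22, 3 of them with a P under 0.05 against 2.59% of all genes, and 0 past adjustment. FKBP5, a cochaperone of the glucocorticoid receptor and one of its targets, stood at 52.5, 73.5, 70.8, 84.5 and 75.3 CPM in the cases, and at 76.6 to 441 CPM (median 115) in the controls. Every case but case 12 was below every control (−1.33 ± 0.42, P = 0.00555). The cases lay close together, while controls 05, 13 and 16 stood at 363, 441 and 240 CPM. A negative screen for hypercortisolism and hypothyroidism together is reported for every case but not for every control. Which controls lack it is not given.

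PER1 stood at 26.9, 13.5, 13.7, 35.4 and 18.5 CPM in the cases against 16.4 to 139 CPM in the controls, and controls 05 and 13 were again the highest, at 129 and 139 CPM (−1.33 ± 0.54, P = 0.0242). ZBTB16 was lower too, at 5.85 to 13.6 CPM against 4.71 to 66.9 CPM, where control 15 was the highest (−1.08 ± 0.47, P = 0.0342). The decoy receptor gene IL1R2, a glucocorticoid target that stood in the inflammatory list, was at 3.13, 5.14, 3.63, 8.47 and 1.86 CPM against 2.59 to 17.3 CPM (−1.12 ± 0.40, P = 0.013). IL1R2 is a neutrophil marker too, and the only one of them that was lower in cases. DUSP1, at −0.71 ± 0.37, and KLF9, at −0.36 ± 0.23, overlapped widely between the groups. TSC22D3 was at −0.22 ± 0.20 (P = 0.298), SGK1 at 0.04 ± 0.25 and the core clock gene ARNTL at −0.03 ± 0.11. Without control 15 ZBTB16 was at −0.58. Over the alternatives tried, PER1 lay between −1.89 and −0.72, ZBTB16 between −1.95 and −0.40 and IL1R2 between −2.01 and −0.47.

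In overweight dogs 11 of the 15 glucocorticoid and clock genes were lower in cases, with a median of −0.12. FKBP5 was at −0.26 ± 0.40 there, and the difference between lean and overweight was −1.08 ± 0.60 (P = 0.0819). For ZBTB16 it was −1.44 ± 0.59 (P = 0.0201, adjusted P = 1). The lean median lay between −0.31 and −0.17 when each lean dog was left out in turn, and was −0.44 on the high and −0.22 on the low side of the small RNA split.

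**Figure D5:**
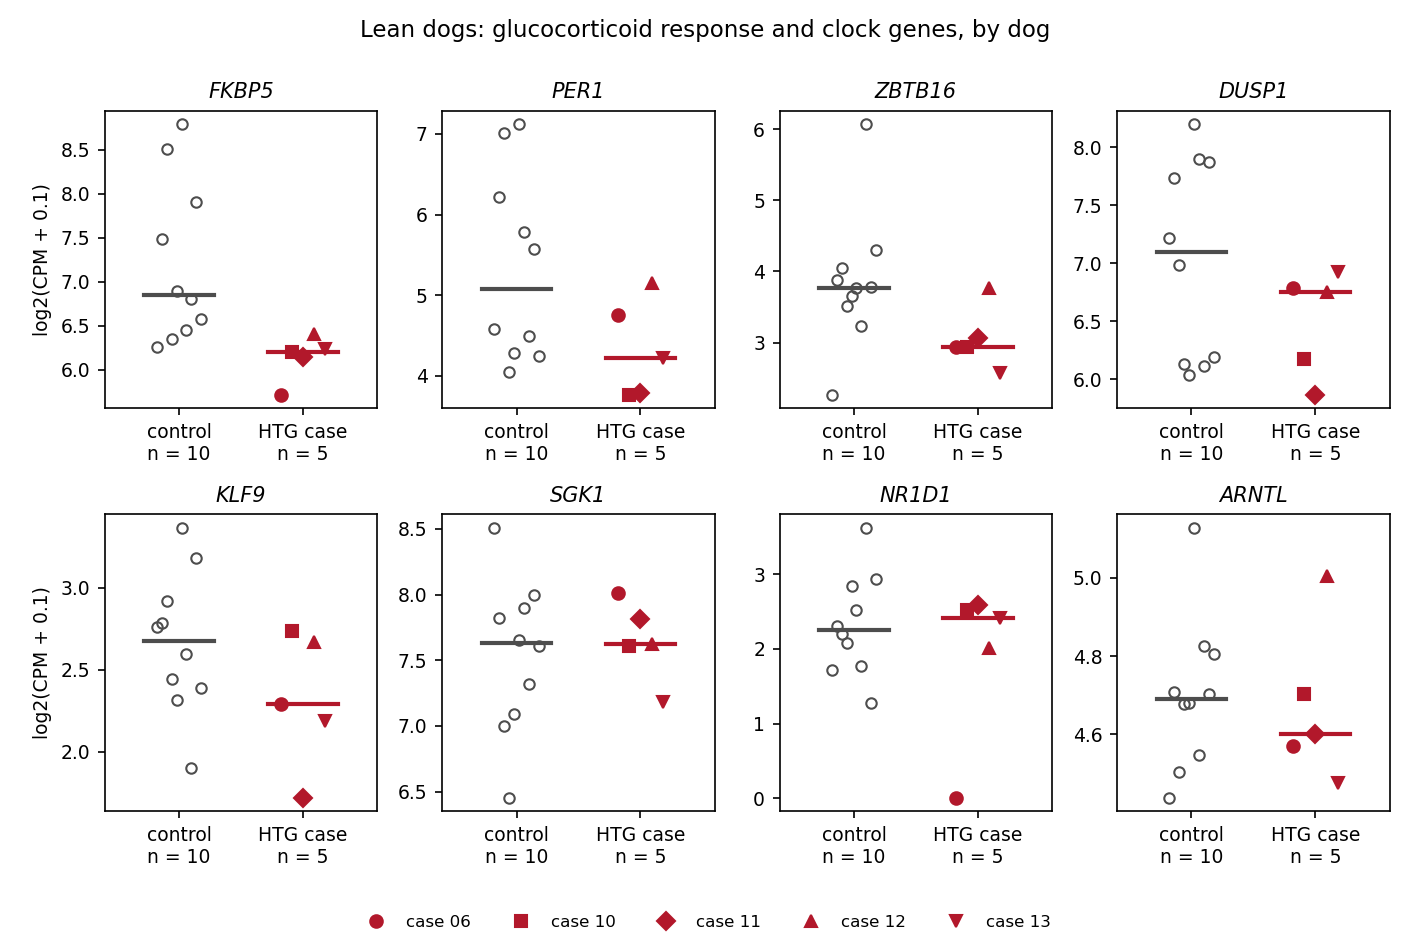
Levels of 8 glucocorticoid response and clock genes in each lean dog, on the scale log2(CPM + 0.1). Open circles are the 10 controls, filled marks the 5 HTG cases and lines the group medians. For FKBP5 the cases sit at the lower end of the wide range of the controls. For PER1 the cases overlap the lower controls and case 12 lies at the control median of 35.7 CPM, and SGK1 and ARNTL overlap widely.

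Of 18 genes for the handling of triglycerides, 10 were below the filter on low counts, 2 of them (APOC3 and APOA5) with 0 counts in every lean dog. LPL, the lipase that clears triglycerides from plasma, was between 0 and 1.13 CPM. Of the 8 tested, 4 were higher and 4 lower (median −0.017). VLDLR, the receptor for very low density lipoprotein, was higher at 5.35, 4.16, 5.79, 2.52 and 3.83 CPM in the cases against 1.09 to 3.41 CPM (median 2.31) in the controls (0.96 ± 0.28, P = 0.00281), with 4 of the 5 cases above every control. Among dogs with a body condition score of 5 it was at 0.60. It was at 0.01 ± 0.48 in overweight dogs (difference 0.95 ± 0.59, P = 0.118). LIPE, PNPLA2 and MGLL, the lipases that empty fat stores inside cells, were at 0.36 ± 0.21, −0.32 ± 0.19 and −0.17 ± 0.22.

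Cholesterol synthesis genes showed no common direction, with 11 of 16 higher (median 0.11, −0.0056 without case 11, and −0.09 on the high and 0.20 on the low side of the small RNA split). SC5D, a late enzyme of the pathway, was lower at 3.62 to 5.25 CPM against 4.06 to 6.15 CPM (−0.32 ± 0.14, P = 0.0355). Of 15 genes of fatty acid oxidation and PPAR targets 7 were higher and 8 lower (median −0.045). On the high side of the small RNA split 9 were higher (median 0.053), and on the low side 6 (median −0.11). PDK4, the carnitine carrier SLC25A20 (−0.36 ± 0.13, P = 0.011) and the lipid droplet coat PLIN2 (−0.33 ± 0.16, P = 0.0499) were the 3 with a P under 0.05, all lower, against 2.59% of all genes. CPT1A, the gate of mitochondrial fatty acid uptake, was at −0.23 ± 0.18. Targets of the sterol receptor LXR were at a median of 0.013 over 11 genes, with 0 at a P under 0.05. In insulin and glucose handling 10 of 15 were higher (median 0.083), and hexokinase 2 (HK2) was the one with a P under 0.05, at 0.43 ± 0.18.

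The lists for inflammation and interferon held little. Of 14 inflammatory genes tested 6 were higher and 8 lower (median −0.05), with IL1R2 as the one with a P under 0.05. On the high side of the small RNA split 5 of 13 were higher (median −0.11). On the low side it was 9 of 14 (median 0.0555), with 0 at a P under 0.05. Interferon stimulated genes were higher in 15 of 17 (median 0.18), with 0 at a P under 0.05, and the median lay between −0.05 without case 11 and 0.375 without control 01, where 2 had a P under 0.05. Erythroid and heme genes were higher in 17 of 18 (median 0.42), but this turned with the small RNA split. On its high side 18 of 18 were higher (median 1.29) and on its low side 15 of 18 lower (median −0.28). ALAS2, which starts heme synthesis in red cell precursors, stood at 8043 CPM in case 06 and 1936 to 2668 CPM in the other 4 cases, against 592 to 3746 CPM in the controls, and the median of the list was 0.087 without case 06. T cell markers were lower in 9 of 10 (median −0.18, and −0.022 without case 06). The median log2 fold change was 0.41 for platelet, 0.36 for erythroid, 0.063 for monocyte, 0.071 for B cell, −0.079 for cytotoxic lymphocyte, 0.33 for eosinophil and basophil and 0.35 for endothelial markers, where 4 of the 9 endothelial markers were below the filter. Several of these rested on 1 dog. Without case 06 the medians were 0.20 for platelet, 0.069 for erythroid, 0.16 for eosinophil and basophil and 0.13 for endothelial markers. Without case 11 they were 0.15 for eosinophil and basophil and −0.046 for monocyte markers, of which 1 of 9 was then higher. For cytotoxic lymphocyte markers the median was 0.20 without control 18, and 0.56 on the high and −0.44 on the low side of the small RNA split. On these sides eosinophil and basophil markers were at 0.78 and −0.017, B cell markers at 0.33 and −0.17, monocyte markers at −0.088 and 0.19, and T cell markers at −0.41 and −0.034.

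The difference between the HTG effect in lean and in overweight dogs was tested gene by gene, and 0 of 15030 genes passed adjustment in edgeR, 607 (4.04%) having an unadjusted P under 0.05. MMP1 had the smallest P. In overweight dogs it stood at 0.473 to 8.48 CPM (median 0.787) in cases and 0.638 to 29.6 CPM (median 9.68) in controls, the opposite order to the lean dogs (−2.10 ± 0.79), so that the difference came to 6.11 ± 1.16 (P = 1.05e-05, adjusted P = 0.158). DESeq2 called it (6.13, adjusted P = 0.00255), along with OLIG1 (2.12, adjusted P = 0.0105), a gene outside the naming rule.

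ARHGAP1, a RhoGTPase activating protein, was higher in lean cases, at 35.8 to 42.2 CPM against 24.6 to 40.1 CPM (0.32 ± 0.10), and lower in overweight cases, at 26.8 to 36.9 CPM against 33.7 to 50.9 CPM (−0.27 ± 0.10). The difference was 0.59 ± 0.13 (P = 0.000126, adjusted P = 0.629). MAPK7, a stress kinase, had the same order, at 0.28 ± 0.08 and −0.23 ± 0.09 (difference 0.51 ± 0.12, P = 0.000175). In the other direction, the transporter gene SLCO2B1 was at −0.31 ± 0.29 in lean and 1.01 ± 0.20 in overweight dogs, and the kinase gene MAPK6 at 0.11 ± 0.09 and 1.01 ± 0.24, with differences of −1.33 ± 0.35 and −0.90 ± 0.27. ZFYVE28, HAVCR1 and PNPLA8 had differences of −1.35, −0.86 and −0.48, and ITIH4 of 2.23.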

How the data were processed

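The authors deposited raw counts of read pairs per gene for 31 whole blood libraries made, per the labels and the methods, with a stranded kit for total RNA. The labels also give the molecule as polyA RNA and name another extraction kit than the methods, so which RNA was selected is not settled here. Reads had been trimmed with Trimmomatic and aligned with HISAT2 in the CHURP pipeline, and pairs were counted when both mates mapped. The counter, its strand setting and the annotation are not given in the sources used here, so overlapping and antisense genes may share reads. Dog10K_Boxer_Tasha is the genome of the methods, but the 32704 rows carry Ensembl dog identifiers, 18601 of them with a symbol.

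Groups and sex came from the labels, and age, body condition score and triglyceride rank from the study's table of dogs. The study used DESeq2 with batch as a covariate, but which libraries were made earlier is not given in the sources used here, so no batch term was fitted. Dogs were instead parted at the widest gap in the mean log2 CPM of 364 small RNA rows, between 1.41 and 1.68. The high side held 10 dogs, 5 cases and 5 controls, the same numbers as the earlier libraries of the study, but the sources used here do not tell whether they are the same dogs.

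In R 4.3.3, edgeR 4.0.16 filtered genes with filterByExpr by group, normalized with TMM and fitted glmQLFit and glmQLFTest without covariates, separately for lean and overweight dogs and, for the difference, over 4 groups. P was adjusted by Benjamini-Hochberg over all genes tested, with a threshold of 0.05. SE was the log2 fold change divided by the root of F. CPM used TMM library sizes, and log2 CPM for principal components (500 genes) and marker scores a prior count of 2. Single values per dog were compared with exact two-sided permutation tests. The tests were tested on simulated data. Each dog is 1 library, so that the spread is between dogs.

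The genes named were the 10 with a symbol and the smallest P in each direction, 8 genes of the study, up to 4 with the smallest P per list, and the 5 with the smallest P in each direction for the difference, with other list members added. Members and lists were chosen with earlier results of these data known. List genes without a row of that symbol were not analysed here, and some genes that the rule names are not reported here. Alternatives were DESeq2 1.42.0, limma-voom 3.58.1, other normalizations and filters, all 31 dogs in 1 fit, sex, age, the small RNA split, the platelet score or 1 surrogate variable (sva 3.50.0) as a covariate, each side of the split alone, a score of 5 only, the dog number as a block, and each dog left out. The split and age together were added after seeing the data.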

Additional observations from a re-analysis of the deposited data

Results flagged for a closer look

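A dog was marked where its gap to the nearest dog of its group, divided by the range of the group, passed Dixon's 95% limit. Of 200 sets of values tested (named genes on the scale log2(CPM + 0.1), library measures and marker scores, in lean cases and in lean controls), 16 were marked, where chance gives about 5%.

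Among the cases, case 06 was the highest for ALAS2 at 8043 CPM, with the next case at 2668 CPM, and the lowest for ARAP2 at 59.2 CPM. Case 11 was the highest for the glycolytic gene HK3 at 713 CPM, with the next case at 333 CPM, and for MVD, an enzyme of cholesterol synthesis, at 42.4 CPM. Case 13 was the lowest for NR1H2, which encodes an LXR receptor, at 88.1 CPM.

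Among the controls, control 12 was the highest for MMP8 at 330 CPM, with the next at 73.4 CPM, and control 05 was the highest for GATA2 at 5.62 CPM and the lowest for SLC15A3, at 0 CPM. Control 13 was the highest for P2RY1, an ADP receptor of platelets, at 34.5 CPM and for the lipoprotein receptor SCARB1 at 55.1 CPM, and it had the lowest B cell score, −0.97 on the log2 scale. Control 10 was the lowest for IL1R2 at 2.59 CPM and for PINK1 at 11.3 CPM, and control 16 for SLPI at 0 CPM and for TMEM156 at 14.1 CPM. Control 18 had the highest cytotoxic lymphocyte score, 1.67.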

How the results depend on the processing

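The count of 0 genes past adjustment among lean dogs was the same in all alternatives but DESeq2, with 1 gene, and the high side of the small RNA split alone, with 5, and it was 0 without each dog in turn. Genes with an unadjusted P under 0.05 numbered 705, and between 452 (dog number as a block) and 1435 (no filter on low counts), with 1276 under 1 surrogate variable and 578 to 838 without each dog. For the difference between lean and overweight dogs, DESeq2 called 2 genes, and for overweight dogs alone it called 83, 73 of them higher, where edgeR called 0. The cause of these differences was not tested. Dog numbers shared by lean cases and controls (10, 12 and 13) did not pair the dogs, with correlations of 0.194, −0.0029 and 0.02. With the number as a block P2RY1 (−0.0295) and HK3 (−0.0119) turned, and on the low side of the split ALAS2 (−0.23) and SPTB (−0.0098). The difference for ST6GALNAC4 turned to 0.13 with the split as a covariate and to 0.0665 with the score as a number, and lay between −0.17 and 0.068 without each dog. MMP1 kept its direction throughout, between 1.94 and 5.66. VLDLR lay between 0.19 (dog number as a block) and 1.17, all in the same direction. Depth limits FST, PDK4, SLC15A3 and KRT17, which rest on few read pairs per dog.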

Other observations

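Apart from the genes described, the genes whose lean groups did not overlap had little in common by name. They were chosen after their values were seen. Higher in every case were BABAM1, a member of the BRCA1-A DNA repair complex, at 37.9 to 51.9 CPM against 25.7 to 37.7 CPM, the dynein light chain DYNLL1 at 12.9 to 14.5 CPM against 7.22 to 12.3 CPM, the lysosomal tethering gene VPS41 at 69.6 to 74.5 CPM against 60.5 to 68.7 CPM, and LRRC56 at 0.540 to 0.797 CPM against 0 to 0.467 CPM. Lower in every case were PHF14, a chromatin reader, at 38.5 to 42.3 CPM against 43.9 to 51.4 CPM, the ubiquitin ligase adaptor FBXO38 at 43.8 to 50.7 CPM against 51.6 to 58.8 CPM, CEP85L at 15.9 to 23.8 CPM against 24.3 to 29.2 CPM, and the zinc finger genes ZSCAN22 and ZNF624, with log2 fold changes of −0.37 ± 0.11 and −0.27 ± 0.12. Groups without overlap made up 0.042% (higher) and 0.077% (lower) of the genes tested, and none of these genes passed adjustment. Among so many genes a few such groups are expected without any effect.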
